A study of Homo sapiens with 24 samples.

Results

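The transcriptional response of Caki-1 and 769-P, a pair of established human kidney cancer lines, to 24 h of the kinase inhibitor dasatinib was compared gene by gene. The change in Caki-1 (dasatinib 24 h minus DMSO) was set against the same change in 769-P. The first minus the second is called the line difference, so a positive value means a larger rise or a smaller fall in Caki-1. It rested on 12 of the 24 Affymetrix PrimeView arrays of the study, with 3 arrays in each of 4 groups: Caki-1 with 1 µM dasatinib for 24 h, Caki-1 with the vehicle DMSO, 769-P with 1 µM dasatinib for 24 h, and 769-P with DMSO. The other 12 arrays, of cells treated for 6 h or 12 h, entered the same fit and gave the earlier time points. The arrays of a group are called biological replicates in the labels, and nothing says whether the cultures were separate, so p-values measure the spread between these arrays, which may be partly technical. No time is attached to the DMSO arrays, so hours of drug and hours in culture cannot be told apart. Each is a single line, so a difference between them is one between 2 lines and not between kinds of tumour.

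Dasatinib blocks the SRC family kinases, ABL and the discoidin domain receptors. SRC kinases sit beneath integrins at focal adhesions and beneath receptor tyrosine kinases, and from there they feed the RAS to ERK cascade, the actin cytoskeleton and, through it, the transcription factors SRF and YAP. ERK drives a fast wave of immediate-early genes such as EGR1 and MYC and also its own inhibitors, the DUSP phosphatases and the SPRY proteins, while cyclin D1 carries the signal into the cell cycle. Clear cell renal carcinoma arises from the proximal tubule, usually after loss of VHL, the protein that marks hypoxia-inducible factors for destruction, and 769-P carries a mutant VHL where Caki-1 carries the wild-type gene.

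All values are log2 signals of 1 probe set per gene. They are comparable between arrays for one gene, not between genes, and a difference of 1 is a 2-fold difference. Arrays of a group correlated at 0.9929 to 0.9975, the array medians lay between 6.008 and 6.084, and of 18132 genes 12862 were bright enough to be tested, with a mean above 5.379 in Caki-1 or 5.362 in 769-P (the filter level). A call is an adjusted p under 0.05 in limma with the Benjamini-Hochberg adjustment, n = 3 arrays a group, and "rose" and "fell" are used of called changes alone. All 10 renal carcinoma markers on the array lay above the filter level in at least 1 of the 4 groups. Of these, KRT19 and NDUFA4L2 passed narrowly, with at most 5.94 and 5.6 on any array of the 4 groups. By contrast, 9 of 15 leukocyte, 8 of 14 endothelial and 6 of 10 fibroblast markers lay below the filter level in every group. Changes are relative to the general level of an array. The poly-A controls, bacterial RNAs meant to be spiked into each sample in fixed amount, averaged 0.20 higher on Caki-1 dasatinib arrays than on Caki-1 DMSO arrays and 0.70 higher on 769-P dasatinib arrays than on 769-P DMSO arrays, a line difference of -0.51 that was called for 4 of 4 spike-ins (adjusted p in limma 0.00066 to 0.0175). Scaling to them, an alternative chosen after seeing the data, moved the median line difference of all genes to 0.493 against -0.014 as deposited, and 7569 of the 8101 genes then called were higher and 532 lower. Small negative differences below hold only relative to the rest of the array. The 3′ minus 5′ signal of ACTB, a sign of RNA integrity, was 2.94 in Caki-1 with dasatinib and 2.98 with DMSO. In 769-P it was 3.46 with dasatinib (arrays 3.1 to 4.07) and 2.99 with DMSO (arrays 2.78 to 3.21), so the arrays overlapped. That of GAPDH was 0.24 in Caki-1 with dasatinib and 0.31 with DMSO, against 0.35 in 769-P with dasatinib and 0.31 with DMSO. The part of these controls in the results was not tested.

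Several promoters are printed because motifs tied to the gene groups described here were looked up in them. They are the RefSeq sequences of GRCh38.p14, 250 bases upstream of 1 annotated start (inside the gene's span for DNMT3B and LIPG) and in the gene's direction, with motif matches on either strand in capitals. In EGR1, FHL2 and TPM4 the capitals mark the CArG box that SRF binds. In MKI67 they mark CCAAT, the NF-Y element, and TTTGAA, the cell cycle homology element. In DNMT3B and LIPG, which moved in opposite directions in the lines, they mark CCAAT. FHL2, TPM4 and MKI67 were added to the set after their values were seen.
EGR1, chr5:138465229-138465478, plus strand: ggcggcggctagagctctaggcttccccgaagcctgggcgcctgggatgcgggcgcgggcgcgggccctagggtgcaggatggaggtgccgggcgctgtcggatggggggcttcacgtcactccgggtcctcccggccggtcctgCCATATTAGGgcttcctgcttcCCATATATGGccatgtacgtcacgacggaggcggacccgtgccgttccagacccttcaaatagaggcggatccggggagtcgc
FHL2, chr2:105438514-105438763, minus strand: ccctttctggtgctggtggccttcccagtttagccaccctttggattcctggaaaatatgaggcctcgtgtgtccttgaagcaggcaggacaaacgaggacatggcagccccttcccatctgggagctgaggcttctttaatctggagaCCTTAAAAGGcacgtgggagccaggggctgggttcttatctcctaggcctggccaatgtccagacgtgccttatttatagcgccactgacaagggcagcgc
TPM4, chr19:16067288-16067537, plus strand: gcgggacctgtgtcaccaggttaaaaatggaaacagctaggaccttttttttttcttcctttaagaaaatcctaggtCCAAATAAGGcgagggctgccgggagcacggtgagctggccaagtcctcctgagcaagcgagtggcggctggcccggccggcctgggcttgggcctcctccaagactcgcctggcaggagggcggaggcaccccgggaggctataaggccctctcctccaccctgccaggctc
MKI67, chr10:128126424-128126673, minus strand: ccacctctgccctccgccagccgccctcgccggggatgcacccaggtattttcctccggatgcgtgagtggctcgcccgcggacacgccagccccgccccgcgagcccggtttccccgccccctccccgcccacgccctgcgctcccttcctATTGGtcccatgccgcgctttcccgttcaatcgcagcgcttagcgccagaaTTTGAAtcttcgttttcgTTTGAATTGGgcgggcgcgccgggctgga
DNMT3B, chr20:32779602-32779851, plus strand: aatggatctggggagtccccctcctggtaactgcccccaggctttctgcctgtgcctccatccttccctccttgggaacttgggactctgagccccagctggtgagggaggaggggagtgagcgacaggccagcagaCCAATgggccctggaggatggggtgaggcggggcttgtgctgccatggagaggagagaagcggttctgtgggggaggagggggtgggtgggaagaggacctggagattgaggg
LIPG, chr18:49561807-49562056, plus strand: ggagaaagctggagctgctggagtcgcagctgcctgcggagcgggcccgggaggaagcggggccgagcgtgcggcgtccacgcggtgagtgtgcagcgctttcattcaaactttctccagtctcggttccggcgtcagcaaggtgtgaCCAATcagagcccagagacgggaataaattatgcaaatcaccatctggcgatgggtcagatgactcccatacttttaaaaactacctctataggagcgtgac

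The response was broad in both lines. At 24 h 7811 genes were called in Caki-1 (4115 rose, 32%, and 3696 fell, 28.7%, together 60.7% of those tested) and 7141 in 769-P (3984 rose, 31%, and 3157 fell, 24.5%, together 55.5%). That near balance holds on the deposited scale: scaled to the spike-ins, 2010 rose and 4614 fell in Caki-1, and 843 rose and 10127 fell in 769-P. The line difference was called for 4628 genes, or 36% of the 12862 tested, with 1780 higher (13.8%) and 2848 lower (22.1%) in Caki-1, at an adjusted p under 0.05 in limma. Of these, 855 (6.65% of the genes tested) differed by at least 2-fold, 401 of them higher and 454 lower in Caki-1. The median SE of a line difference was 0.151. Across the 12862 genes the changes in the 2 lines had a Pearson r of 0.711 and a Spearman rho of 0.646, as a description over genes of shared arrays.

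The called line differences were of several kinds. Of 2495 genes that rose in both lines, 807 differed between them, and of 2337 genes that fell in both, 926 did. Another 559 of 1433 genes called up in Caki-1 alone differed between the lines, as did 694 of 1083 called down in Caki-1 alone, 738 of 1213 called up in 769-P alone and 388 of 633 called down in 769-P alone. The remaining genes called in 1 line alone had no called difference, so a call in 1 line did not by itself separate the lines. On the deposited scale the change in Caki-1 was the larger in size for 2408 of the 4628 genes, or 52%. Scaled to the spike-ins, 6624 genes were called in Caki-1 and 10970 in 769-P against DMSO. In 24% of the 855 genes that differed at least 2-fold, the gene lay below the filter level in 1 line (113 in 769-P and 92 in Caki-1), where a fall cannot be seen.

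**Figure D1:**
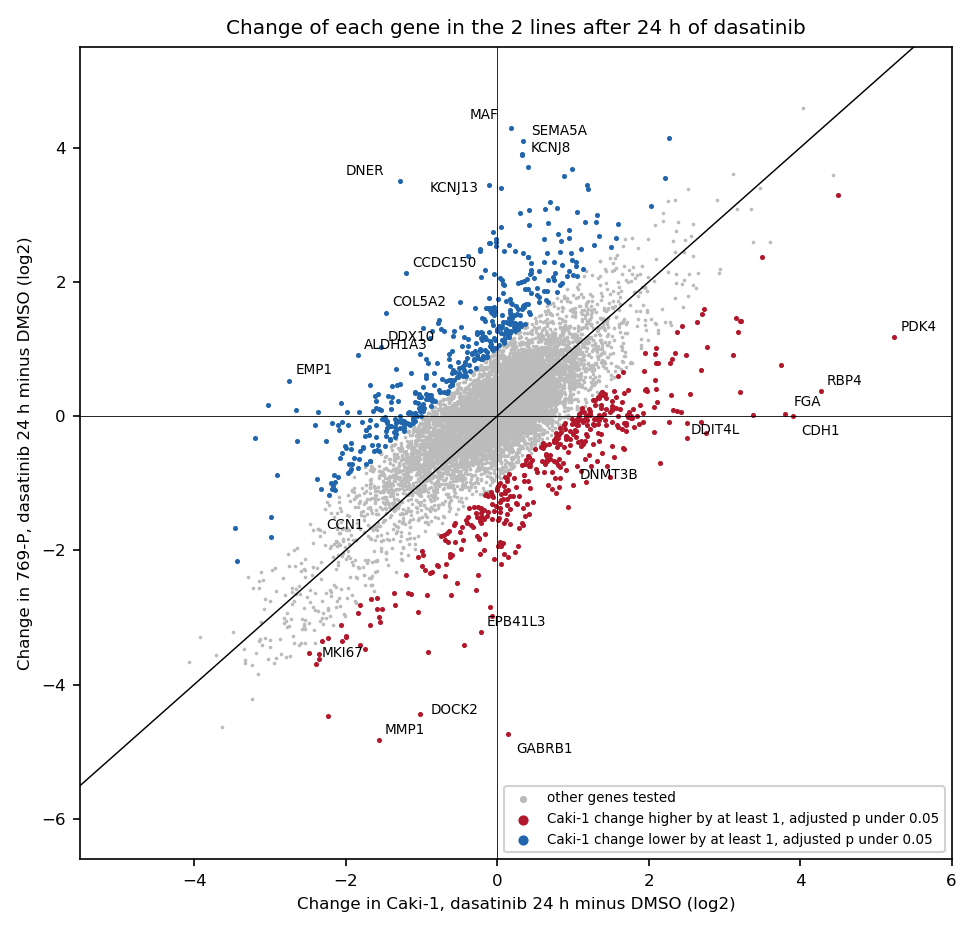
Change of each of the 12862 genes tested after 24 h of dasatinib, Caki-1 on the x axis and 769-P on the y axis (log2, dasatinib minus DMSO, means of 3 arrays a group). Red and blue points are the 401 and 454 genes whose line difference was called and at least 1 in size, and the diagonal marks equal change.

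Among the largest positive differences were genes that rose steeply in Caki-1 and little or not in 769-P. PDK4, the kinase that holds pyruvate back from oxidation, had signals of 9.54, 9.91 and 9.95 on Caki-1 dasatinib arrays and 4.74, 4.18 and 4.75 on Caki-1 DMSO arrays, against 4.97, 6.14 and 5.91 on 769-P dasatinib arrays and 4.18, 4.56 and 4.75 on 769-P DMSO arrays. The gene thus rose in both lines, with no overlap between drug and vehicle in either, and far more in Caki-1, by a line difference of 4.06 ± 0.46 (SE; adjusted p = 2.78e-07, limma). CDH1, the epithelial cadherin, stood at 8.6, 9.88 and 9.77 in Caki-1 with dasatinib and at 5.02, 5.73 and 5.79 in Caki-1 with DMSO. In 769-P it stayed between 4.01 and 4.36 on all 6 arrays, below the filter level, so the difference of 3.9 ± 0.58 (adjusted p = 1.42e-05, limma) was made by Caki-1 alone. The retinol carrier RBP4, a protein secreted by the liver, differed by 3.9 ± 0.28, with 12.79, 13.07 and 13.00 in Caki-1 with dasatinib and 8.30, 8.95 and 8.80 in Caki-1 with DMSO. The fibrinogen chains FGA and FGB differed by 3.77 ± 0.24 and 2.98 ± 0.32. FGA lay below the filter level on all 6 769-P arrays, and FGB rose in 769-P too, by 0.76. Both belong to a list of 17 complement and acute-phase genes of which 5 were higher and 3 lower (47.1%), with a median of -0.03. DDIT4L, an inhibitor of mTOR signalling, and MFSD12, a lysosomal cysteine importer, rose in Caki-1 by 3.38 and 2.76, against 0.02 and -0.25 in 769-P.

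Other large positive differences came from steep falls in 769-P. GABRB1, a subunit of the GABA type A receptor, had 3.94, 3.31 and 3.43 on 769-P dasatinib arrays and 8.65, 8.18 and 8.05 on 769-P DMSO arrays, while all 6 Caki-1 arrays lay between 3.50 and 4.0. Its line difference of 4.87 ± 0.26 was the largest positive one among the genes named by size, and it measured the fall in 769-P, since Caki-1 had no signal above the filter level to lose. DOCK2, an activator of RAC, fell in both lines, by 1.01 in Caki-1 and by 4.44 in 769-P. The collagenase MMP1 fell by 1.56 in Caki-1 and by 4.83 in 769-P. It ended around the filter level in both lines, at 4.22 to 5.7 in Caki-1 and 4.53 to 5.5 in 769-P with dasatinib. With DMSO it stood at 6.14 to 7.08 in Caki-1 and 9.65 to 9.73 in 769-P, so the starting level bounded the fall that could be seen. The membrane skeleton protein EPB41L3 fell by 3.21 in 769-P where its Caki-1 change was -0.22, below the filter level.

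The largest negative differences were mostly rises in 769-P of genes that were dim in Caki-1. MAF, a leucine zipper transcription factor, had 11.17, 11.37 and 11.93 on 769-P dasatinib arrays and 6.14, 6.99 and 8.45 on 769-P DMSO arrays. All 6 Caki-1 arrays lay between 3.82 and 4.72, so the difference of -4.12 ± 0.58 (adjusted p = 6.90e-06, limma) came from 769-P, although only 2 of the 4 probe sets of MAF had this sign. SEMA5A, an axon guidance protein, rose in 769-P by 4.10, the potassium channels KCNJ8 and KCNJ13 by 3.9 and 3.40, the oxysterol receptor GPR183 by 3.89, and the steroid dehydrogenase HSD17B2 by 3.44. None of these 5 was called in Caki-1, where their changes lay between -0.10 and 0.34. SORBS2, an adaptor of actin and adhesion proteins, rose in both lines, by 0.41 in Caki-1 and by 3.71 in 769-P. EMP1, a membrane glycoprotein of epithelia, fell by 2.74 in Caki-1 and rose by 0.53 in 769-P, from a 769-P level below the filter.

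Opposite movement was the sharpest form of the difference. Of the genes tested, 463 (3.6%) were called in opposite directions with the line difference called too: 187 (1.45%) rose in Caki-1 and fell in 769-P, and 276 (2.15%) fell in Caki-1 and rose in 769-P. Under spike-in scaling 668 genes rose in Caki-1 and fell in 769-P and 37 did the reverse, so the share of the 2 orientations depended on the scale. DNMT3B, a de novo DNA methyltransferase (chr20:32762385-32809356 in GRCh38.p14), had 10.89, 10.78 and 10.81 on Caki-1 dasatinib arrays and 9.99, 9.77 and 9.70 on Caki-1 DMSO arrays. In 769-P it had 8.01, 7.88 and 7.80 with dasatinib and 8.97, 8.95 and 8.85 with DMSO. The drug arrays lay wholly above the vehicle arrays in Caki-1 and wholly below them in 769-P, and the difference was 2.03 ± 0.16 (adjusted p = 1.15e-09, limma), with the same sign in 10 of 11 probe sets of the gene. Caki-1 stood 2.93 above 769-P after 24 h of dasatinib and 0.89 above it under DMSO.

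LIPG, the endothelial lipase (chr18:49561479-49599185), showed the same orientation, with 8.22, 8.41 and 8.42 against 7.12, 7.26 and 7.17 in Caki-1 (dasatinib against DMSO) and 7.29, 6.78 and 6.73 against 8.04, 8.14 and 7.58 in 769-P. Here Caki-1 passed 769-P: it was higher by 1.42 with dasatinib and lower by 0.74 under DMSO. The junction protein CGNL1 (paracingulin) rose by 0.94 in Caki-1 and fell by 1.36 in 769-P, and TMCC3, a protein of the endoplasmic reticulum, rose by 1.49 in Caki-1 and fell by 0.90 in 769-P. NGEF, the raft protein RFTN1, C3orf52 and DOP1B followed, with line differences from 1.72 to 1.92. C3orf52 lay below the filter level on all 6 769-P arrays, between 3.66 and 5.06, so its fall there is one within dim signal.

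In the reverse orientation stood COL5A2, a fibrillar collagen chain (chr2:189031898-189441111). It had 10.31, 10.03 and 10.08 on Caki-1 dasatinib arrays and 11.53, 11.63 and 11.66 on Caki-1 DMSO arrays. In 769-P it had 6.93, 6.77 and 6.88 with dasatinib and 5.67, 5.26 and 5.04 with DMSO. Drug and vehicle arrays were apart in both lines and in opposite order, and the difference was -3.01 ± 0.17 (adjusted p = 6.89e-12, limma), shared in sign by 4 of 6 probe sets. The gap between the lines narrowed from both sides, 3.28 with dasatinib where it was 6.28 under DMSO. The 769-P DMSO arrays of COL5A2 lay around the filter level, so its rise there and the gap under DMSO start from dim signal. DNER, a Notch ligand of neurons, fell to 6.09, 5.81 and 5.58 in Caki-1 with dasatinib, against 7.08, 7.19 and 7.07 with DMSO. In 769-P it reached 7.88, 7.84 and 7.32 with dasatinib, against 4.30, 4.02 and 4.22 with DMSO. Its line difference of -4.78 ± 0.30 was the largest negative one in the named set, and the order of the lines turned: Caki-1 was lower by 1.85 with the drug and higher by 2.94 under DMSO. The 769-P DMSO arrays of DNER lay below the filter level, so its rise there and the gap under DMSO start from dim signal.

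The nucleolar helicase DDX10 fell by 1.53 in Caki-1 and rose by 1.03 in 769-P, with drug and vehicle arrays apart in both. The retinaldehyde dehydrogenase ALDH1A3 had signals between 10.86 and 11 in Caki-1 with dasatinib and 12.70, 12.78 and 12.79 with DMSO. In 769-P it had 12.00, 11.84 and 12.38 with dasatinib and 10.78, 10.93 and 11.78 with DMSO, where a single DMSO array came close to the drug arrays. CSRP2, a LIM protein of smooth muscle, the fatty acid elongase ELOVL6, the synaptic protein CBLN2 and CCDC150 had line differences of -2.29, -2.04, -1.94 and -3.33.

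**Figure D2:**
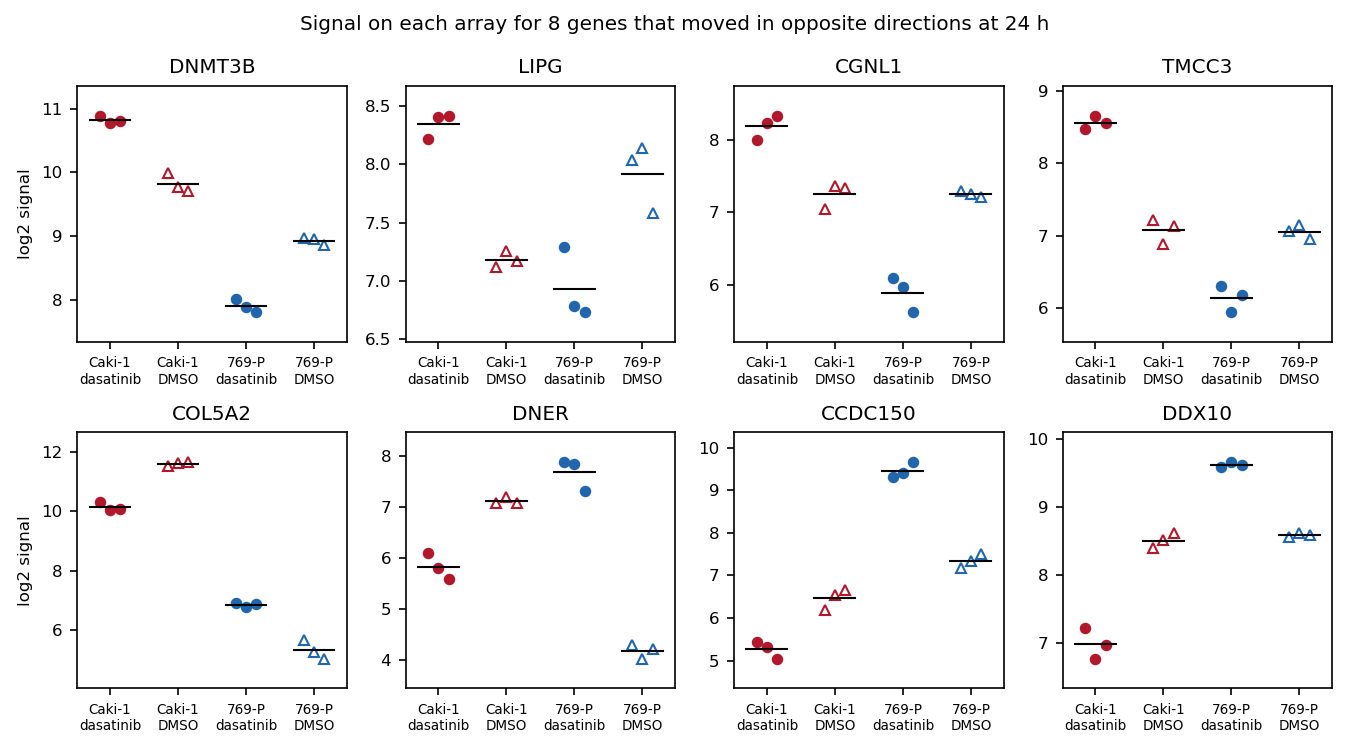
Signal (log2) on each of the 12 arrays for 8 of the genes called in opposite directions, upper row those that rose in Caki-1, lower row those that fell in Caki-1. Filled circles are dasatinib 24 h arrays, open triangles DMSO arrays, red Caki-1, blue 769-P, and bars are group means: drug and vehicle arrays are in opposite order in the 2 lines in each panel.

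The percentages of list members called below stand beside 36% of all genes tested, of which 13.8% were higher and 22.1% lower. Under spike-in scaling the lists shifted with all other genes, and 498 of the 535 members then called were higher. Of 15 tested kinases that dasatinib binds, 3 were higher and 1 lower in Caki-1 (26.7%), with a median difference of 0.08, and 11 were higher and 0 lower under spike-in scaling. DDR1, a collagen receptor kinase, was the one with the largest difference: it had 10.77, 10.89 and 10.40 in Caki-1 with dasatinib and 9.33, 9.79 and 9.82 with DMSO, against 8.07, 7.65 and 7.75 in 769-P with dasatinib and 7.85, 8.37 and 8.18 with DMSO. It rose in Caki-1 and had overlapping arrays in 769-P, a difference of 1.35 ± 0.23 (adjusted p = 6.25e-05, limma). RIPK2, an inflammatory signalling kinase, and SIK2, a salt-inducible kinase, were also higher, by 0.80 and 0.59, and the SRC relative FRK was lower by 0.97. The call of SIK2 was lost without 769-P DMSO replicate 3 (0.43), and that of FRK under spike-in scaling (-0.46). No difference was called for SRC (-0.14 ± 0.17), YES1 (0.06 ± 0.09), LYN (0.27 ± 0.22), ABL1 (0.28 ± 0.12), ABL2 (-0.21 ± 0.14) or the ephrin receptor EPHA2 (-0.15 ± 0.18), which fell by 1.52 in Caki-1 and by 1.38 in 769-P. The signs of SRC, ABL2 and EPHA2 turned when arrays were scaled to the spike-ins, and YES1, LYN and ABL1 were then called higher. The ABL calls hung on the setting: ABL1 was also called in the fit of the 12 arrays alone, with array weights, with the replicate block and under quantile normalization (adjusted p in limma 0.0118 to 0.0494), and ABL2 with array weights or without 769-P DMSO replicate 1 (-0.31 and -0.35). DDR2 was not tested.

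Receptors and their ligands split. In the EGF receptor list 2 of 11 members were higher and 6 lower (72.7%). The median line difference was -0.32, although the median change was 0.12 for Caki-1 and 0.09 for 769-P. Under spike-in scaling the median line difference became 0.19, with 3 higher and 2 lower. The ligand HBEGF fell in both lines and less in Caki-1 (by 0.68, and by 2.20 in 769-P). The receptor ERBB3 rose in both lines and more in 769-P (2.27 in Caki-1, 4.14 in 769-P). NRG1 fell by 1.94 in Caki-1 and by 0.81 in 769-P, while TGFA fell by 0.90 in Caki-1 and changed by -0.06 in 769-P, a difference of -0.84 that lost its call under spike-in scaling (-0.33). Of 19 other receptor tyrosine kinases and partners, 5 were higher and 2 lower (36.8%, near the share of all genes), or 11 higher and 1 lower under spike-in scaling. Among them were FGFR1 (0.99 ± 0.15), which rose in Caki-1 and fell in 769-P, and GAS6, the ligand of AXL (-1.08 ± 0.16), which fell in Caki-1.

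ERK feedback and immediate-early genes differed by gene and by hour. At 24 h 8 of 28 were higher and 5 lower (46.4%), with a median of 0.16, or 18 higher and 2 lower under spike-in scaling. EGR1, a zinc finger transcription factor of the immediate-early class, had 9.19, 9.01 and 9.02 in Caki-1 with dasatinib and 5.49, 6.05 and 6.03 with DMSO, against 8.15, 8.29 and 7.87 in 769-P with dasatinib and 6.82, 7.01 and 6.21 with DMSO. It rose in both lines without overlap, and the order of the lines turned: Caki-1 was higher by 0.97 with dasatinib and lower by 0.83 under DMSO (line difference 1.79 ± 0.25, adjusted p = 4.56e-06, limma). IER2 and IER3, both immediate-early genes, were opposite movers. IER2 rose by 0.43 in Caki-1 and fell by 1.07 in 769-P, and IER3 rose by 0.36 in Caki-1 and fell by 0.87 in 769-P. ATF3, a stress transcription factor, went the other way, rising by 1.01 in Caki-1 and by 2.10 in 769-P, though only 4 of its 7 probe sets shared that sign.

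The earlier arrays put these differences in time. The line difference was called for 1041 genes at 6 h (8.09%) and 2435 at 12 h (18.9%), and the 3 times share the DMSO arrays, so each is given by its own values. MYC, which fell in both lines, had a line difference of 2.38 ± 0.21 at 6 h and 1.68 at 12 h, both called, and of 0.06 ± 0.21 at 24 h, not called. Under spike-in scaling the 24 h value of MYC was 0.56 and called (adjusted p = 0.0371, limma). By then its signals were 11.28, 11.03 and 11.11 in Caki-1 with dasatinib and 11.89, 12.03 and 12.06 with DMSO, and 10.57, 10.13 and 10.23 in 769-P with dasatinib and 11.35, 11.29 and 11.02 with DMSO: a fall by 0.85 in Caki-1 and by 0.91 in 769-P. The difference of the line differences, 24 h minus 6 h, needs no DMSO array, and for MYC it was -2.32 ± 0.21 (adjusted p = 3.49e-08, limma). This contrast, added after seeing the data, was called for 3733 genes (29%), 1507 higher (11.7%) and 2226 lower (17.3%).

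On the deposited scale the line differences of the ERK phosphatase DUSP5 and the inhibitor SPRY2 narrowed too. DUSP5 had line differences of 2.55, 1.74 and 0.97 at 6, 12 and 24 h, and its 24 h value was lower than its 6 h value by 1.58 ± 0.25 (a 24 h minus 6 h contrast of -1.58, adjusted p = 4.14e-05, limma). Its change at 6 h was 0.75 in Caki-1 and -1.80 in 769-P, and at 24 h it rose in both. SPRY2 had 1.57, 0.87 and 0.27, of which the last was not called. Under spike-in scaling the 24 h value of SPRY2 was 0.77 and called (adjusted p = 0.014, limma). THBS1, a matrix glycoprotein, crossed over, with 1.60 at 6 h, 0.09 at 12 h and -1.19 at 24 h, the first and last called. EGR1 held its difference (2.27, 2.52 and 1.79), and its 24 h value was not called apart from its 6 h value (-0.47 ± 0.25, adjusted p = 0.157, limma). In the immediate-early list 13 of 28 members were higher and 3 lower at 6 h (3.68% and 4.42% among all genes), and in the contrast of 24 h with 6 h 1 was higher and 10 lower.

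**Figure D3:**
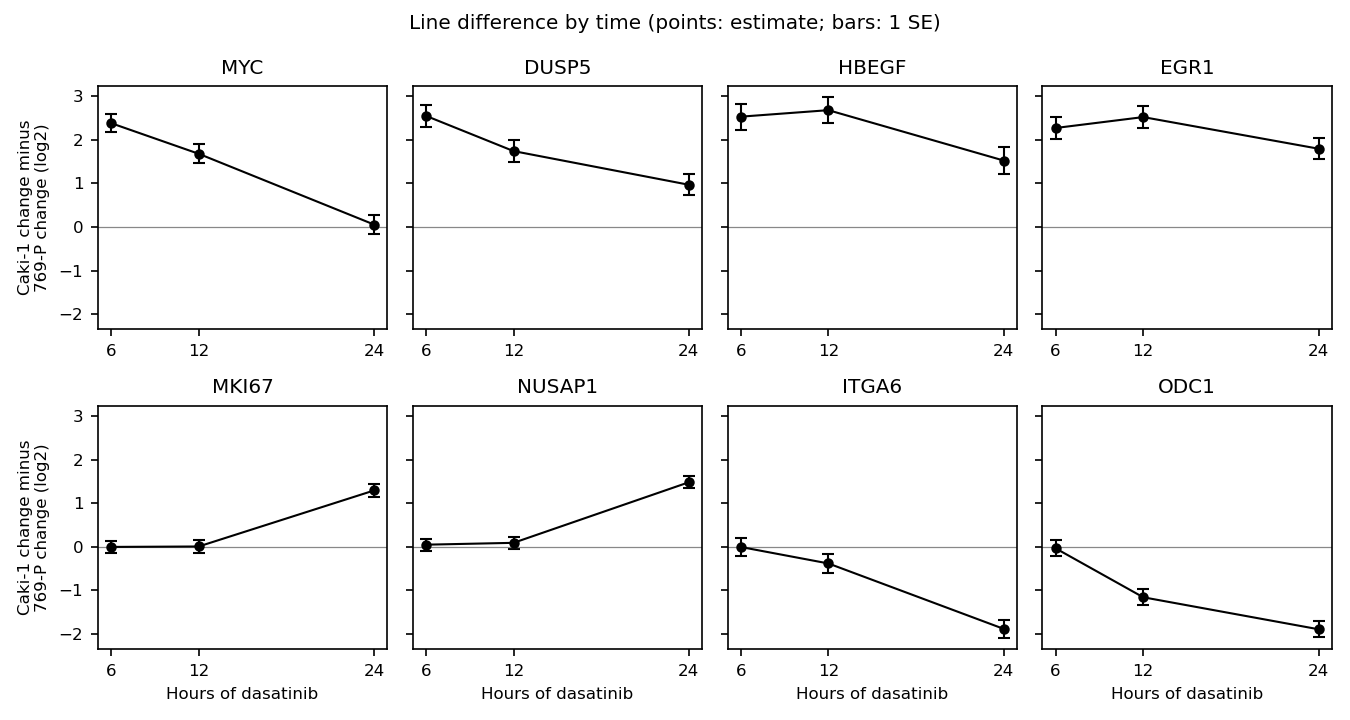
Line difference (Caki-1 change minus 769-P change, log2) at 6, 12 and 24 h for 8 genes, each with 1 SE from the fit over 24 arrays. MYC, DUSP5 and HBEGF had their 24 h value below their 6 h value, EGR1 stayed between 1.79 and 2.52, and MKI67, NUSAP1, ITGA6 and ODC1 were near 0 at 6 h and apart at 24 h.

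Mitosis genes made the opposite course. All 31 tested fell in both lines at 24 h, with a median of -2.30 in Caki-1 and -3.0 in 769-P, and 25 of 31 were higher and 0 lower between the lines (80.6%), a median difference of 0.71. The list median stayed positive under each scaling tried. At 6 h and 12 h the median differences were 0.05 and -0.05, with 0 of 31 and 1 of 31 called, and in the contrast of 24 h with 6 h 26 were higher and 0 lower. MKI67, the proliferation antigen Ki-67, had 7.65, 7.58 and 7.70 in Caki-1 with dasatinib and 10.13, 9.93 and 10.07 with DMSO, against 6.59, 6.58 and 6.84 in 769-P with dasatinib and 10.32, 10.35 and 10.41 with DMSO. Caki-1 was higher by 0.98 with dasatinib and lower by 0.32 under DMSO (line difference 1.29 ± 0.15, adjusted p = 2.96e-07, limma).

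NUSAP1, a spindle microtubule binder, was the widest of the list: it fell by 0.59 in Caki-1 and by 2.07 in 769-P. TOP2A, the topoisomerase that untangles chromosomes, fell by 2.0 in Caki-1 and by 3.27 in 769-P, and SPC25, a kinetochore subunit, by 3.64 in Caki-1 and by 4.63 in 769-P. The mitotic kinase CDK1 differed by 0.84 and AURKA by 0.86. No difference was called for the spindle checkpoint genes MAD2L1 (0.00) and TTK (0.31), or for CCNB1 (0.30), CCNB2 (0.34), KIF20A (0.51) and CDC25C (0.58). Promoters of 26 mitosis genes were in the RefSeq table, and 20 of them held CCAAT and 13 TTTGAA, or 76.9% and 50%, where all 27305 promoters of this length held them in 33% and 13.6%. These shares describe a list drawn up from general knowledge, and the part of the motifs in the line difference was not tested. In MKI67 above, the second TTTGAA and the ATTGG after it share 1 base, 24 bases before the start.

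DNA replication genes also fell steeply in both lines. All 34 fell in 769-P and 32 in Caki-1, with medians of -2.07 in each line. Between the lines 5 were higher and 4 lower (26.5%), a median of 0.04 that became -0.004 when arrays were centred on their medians and 0.54, with 24 higher and 2 lower, under spike-in scaling. CDT1, the licensing factor, was higher by 1.27 ± 0.16 and thymidine kinase TK1 by 0.76 ± 0.11, whereas GINS3 of the replicative helicase was lower by 1.18 and ORC6 of the origin complex by 0.89. CCND1, cyclin D1, fell by 1.81 in Caki-1 and by 2.82 in 769-P, a difference of 1.01 ± 0.23. No difference was called for the inhibitors CDKN1A, or p21 (-0.21 ± 0.12), and CDKN1C, or p57, which rose by 3.61 in Caki-1 and by 2.60 in 769-P (1.01 ± 0.42, adjusted p = 0.0644, limma). CDKN1C was called in 7 of 23 other settings, among them the replicate block, array weights, the mean over its probe sets (1.36) and spike-in scaling (1.51), with adjusted p in limma of 0.00136 to 0.0348, and CDKN1A with array weights (-0.31, adjusted p = 0.0212, limma).

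Ribosome biogenesis genes and MYC targets fell in both lines. All 28 fell in Caki-1 and 25 in 769-P, with medians of -1.43 in Caki-1 and -0.95 in 769-P. Between the lines 1 was higher and 11 lower (42.9%). The median of -0.29 turned to 0.21, with 9 higher and 5 lower, under spike-in scaling. ODC1, the rate-limiting enzyme of polyamine synthesis and a MYC target, had 8.81, 8.71 and 8.84 in Caki-1 with dasatinib and 10.68, 10.89 and 11.06 with DMSO, against 11.69, 11.60 and 11.37 in 769-P with dasatinib and 12.07, 11.72 and 11.48 with DMSO. It fell in Caki-1 without overlap, while the 769-P groups overlapped (difference -1.89 ± 0.18, adjusted p = 3.16e-08, limma). POLR3G, a subunit of RNA polymerase III, WDR12, a ribosome assembly factor, and POLR1A, the large subunit of RNA polymerase I, were lower by 1.49, 1.25 and 0.98. Of 25 cytosolic ribosomal proteins 3 rose and 4 fell in Caki-1, and 1 rose and 6 fell in 769-P. Between the lines 1 differed (4%), with a list median of 0.02. This was RPL4 (0.24 ± 0.06, but 0.05 and not called in the mean over its probe sets). Under spike-in scaling 25 of 25 were higher, with a median of 0.525, close to the 0.493 of all genes.

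Most SRF targets and actin cytoskeleton genes fell in 769-P, and as many rose as fell in Caki-1. Of 24, 9 rose and 9 fell in Caki-1, and 1 rose and 17 fell in 769-P. Between the lines 17 were higher and 1 lower (75%), with a median of 0.45. The list median stayed positive under each scaling tried. FHL2, a LIM cofactor of SRF, had 12.20, 11.67 and 11.65 in Caki-1 with dasatinib and 11.52, 11.48 and 11.52 with DMSO, against 10.36, 10.14 and 10.32 in 769-P with dasatinib and 11.59, 11.68 and 11.65 with DMSO. The dasatinib arrays lay above the DMSO arrays in Caki-1 and below them in 769-P (difference 1.71 ± 0.15, adjusted p = 6.79e-09, limma). Tropomyosin TPM4 had 10.40, 10.37 and 10.38 in Caki-1 with dasatinib and 10.28, 10.27 and 10.21 with DMSO, against 10.19, 10.24 and 10.31 in 769-P with dasatinib and 11.17, 11.17 and 11.32 with DMSO, a difference of 1.10 ± 0.10. ACTA2, smooth muscle actin, rose by 1.28 in Caki-1, and CALD1, caldesmon, rose by 0.65 in Caki-1 and fell by 0.56 in 769-P. LIMA1, an actin bundler, was the one lower member (-0.57). Of the 21 promoters of this list in the table, 5 held a CArG box (ACTG1, CNN2, FHL2, SRF and TPM4), or 23.8%, where 1.14% of all promoters did. The list was drawn up from general knowledge to hold SRF targets, so this share describes the list. The part of the motif in the line difference was not tested.

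YAP and TEAD targets are known to be lowered by SRC inhibition. The list of them used here also holds the regulators YAP1, WWTR1, TEAD1 and TEAD4. Of 25 list members tested, 14 fell and 4 rose in Caki-1, and 15 fell and 2 rose in 769-P. The members tested had medians of -0.39 in Caki-1 and -0.38 in 769-P. No difference was called for the best-known targets: CCN1 fell by 2.34 in Caki-1 and by 1.78 in 769-P (difference -0.56 ± 0.39), and CCN2 by 2.12 in Caki-1 and by 1.86 in 769-P (-0.26 ± 0.33). The value of CCN2 rested on the choice of probe set: in the mean over all its probe sets it was -1.25 and called (adjusted p = 0.000724, limma), and under spike-in scaling it was 0.25 and not called. Of the list, 9 were higher and 5 lower (56%). IGFBP3, which binds insulin-like growth factors, rose by 2.51 in Caki-1 and changed by -0.11 in 769-P, a difference of 2.61 ± 0.30. RBMS3, an RNA-binding protein, fell by 1.66 in 769-P, DOCK5 rose by 1.17 in Caki-1, and F3, tissue factor, fell by 1.89 in Caki-1 and by 0.63 in 769-P. The list median of -0.04 turned to 0.46 under spike-in scaling and to 0.01 under quantile normalization.

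Adhesion and matrix genes parted by gene. Of 23 integrin and focal adhesion genes 9 were higher and 7 lower (69.6%). ITGB8, an integrin subunit that activates TGF-beta, had 11.68, 11.67 and 11.46 in 769-P with dasatinib and 8.33, 8.95 and 9.62 with DMSO, and changed by -0.01 in Caki-1 (difference -2.65 ± 0.28). ITGA6, a laminin receptor subunit, had 8.46, 8.32 and 8.6 in Caki-1 with dasatinib and 10.85, 10.63 and 10.68 with DMSO, and fell by 0.38 in 769-P (difference -1.88 ± 0.21). With dasatinib Caki-1 lay below 769-P for both, and for ITGA6 it did so under DMSO too (10.63 to 10.85, against 11 to 11.13 in 769-P). The adhesion adaptors LIMS1 and FERMT2 were higher, by 1.21 and 1.12. Of 24 collagen and matrix genes 8 were higher and 4 lower (50%): the crosslinking enzyme LOX (1.96 ± 0.33) and TGFBI (1.57 ± 0.20) stood against COL5A2 and THBS1. Among 11 proteases 5 were higher and 3 lower (72.7%). The gelatinase MMP2 rose by 1.76 in Caki-1, PLAU, or urokinase, fell by 0.69 in Caki-1 and by 2.38 in 769-P, and the aggrecanase ADAMTS1 fell by 0.86 in Caki-1 and rose by 1.27 in 769-P. In 769-P MMP2 lay around the filter level with dasatinib and with DMSO (5.2 to 5.41), and LOX lay below it with dasatinib (4.93 to 5.25). In the BMP and TGF-beta list 9 of 21 were higher and 6 lower (71.4%). INHBA was higher by 1.95, ID4 lower by 2.22, and the BMP antagonists GREM1 and NOG lower by 1.09 and 0.94. Caki-1 lay below the filter level for ID4, and 769-P for GREM1 (at most 4.59) and NOG (at most 5.09), where a fall cannot be seen. NOG lost its call under spike-in scaling (-0.43).

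MHC class I presentation genes rose in Caki-1 more than in 769-P. In Caki-1 12 of 15 rose and 1 fell, in 769-P 5 rose and 3 fell, and 12 were higher and 0 lower between the lines (80%), with a median of 0.525 that kept its sign under each scaling tried. NLRC5, the transactivator of these genes, had 9.63, 9.59 and 9.73 in Caki-1 with dasatinib and 7.92, 7.82 and 8.03 with DMSO, against 6.34, 5.92 and 6.22 in 769-P with dasatinib and 6.47, 5.76 and 6.30 with DMSO. It rose in Caki-1 and overlapped in 769-P (difference 1.75 ± 0.20, adjusted p = 4.28e-07, limma). The immunoproteasome subunit PSMB9 was higher by 1.24 ± 0.21 and HLA-F by 1.08 ± 0.18, though probe sets of HLA genes can read one another. Of 20 interferon-stimulated genes, 2 were higher and 3 lower (25%, with 12 higher and 1 lower under spike-in scaling), among them the RNA sensor RIGI, which rose by 0.42 in Caki-1 and by 1.55 in 769-P.

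**Figure D4:**
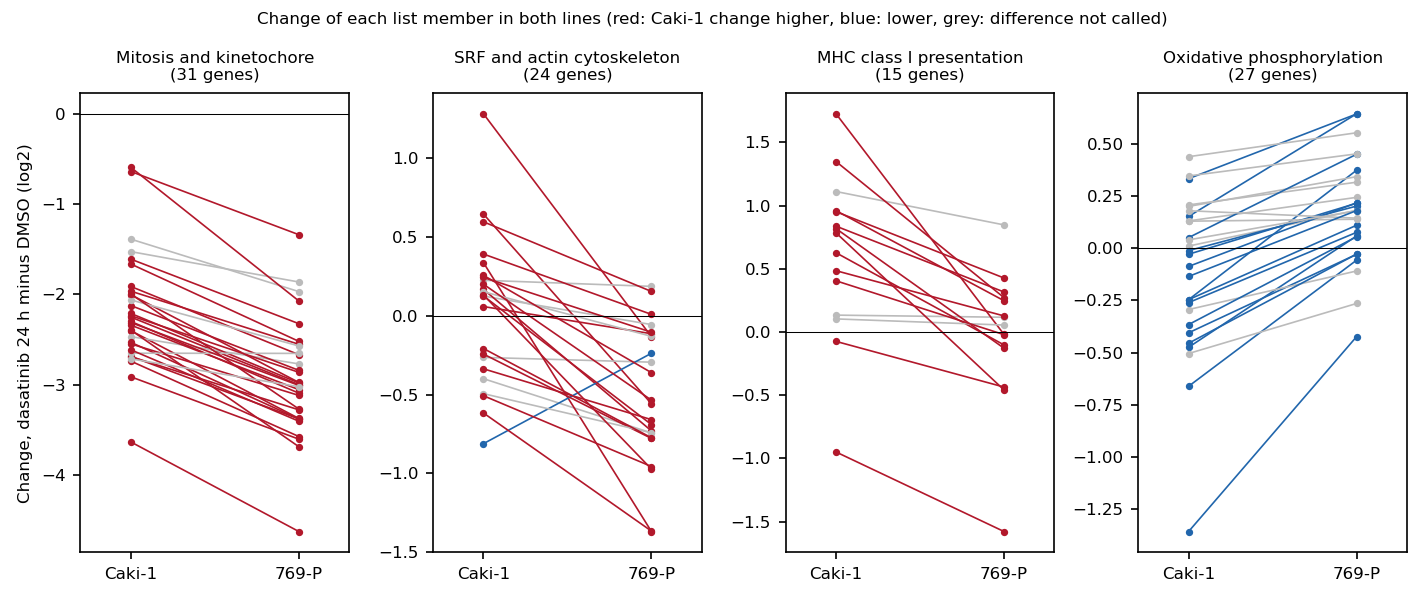
Change after 24 h of dasatinib (log2) of each tested member of 4 lists in Caki-1 (left) and 769-P (right), joined by a line. Red marks a line difference called higher in Caki-1 and blue one called lower: 25 of 31 mitosis genes, 17 of 24 SRF and actin genes and 12 of 15 MHC class I genes were red, and 16 of 27 oxidative phosphorylation genes were blue.

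Oxidative phosphorylation genes changed by small steps. In Caki-1 9 of 27 rose and 12 fell, and in 769-P 16 rose and 2 fell. Between the lines 0 were higher and 16 lower (59.3%). The median of -0.31 turned to 0.20, with 11 higher and 1 lower, under spike-in scaling. Cytochrome c, CYCS, had 11.35, 11.38 and 11.41 in Caki-1 with dasatinib and 12.61, 12.75 and 12.85 with DMSO, against 13.02, 13.00 and 12.99 in 769-P with dasatinib and 13.31, 13.46 and 13.51 with DMSO. It fell in both lines, without overlap, and further in Caki-1 (difference -0.94 ± 0.08, adjusted p = 7.61e-09, limma). The ATP synthase subunits ATP5PO and ATP5F1B and the complex I subunit NDUFA9 were lower by 0.62, 0.53 and 0.61, and none of these 3 kept its call under spike-in scaling. Of 30 hypoxia targets and glycolysis genes 9 were higher and 1 lower (33.3%), with a median of 0.31, or 25 higher and 0 lower under spike-in scaling. Next to LOX they included PFKFB4, a regulator of glycolysis (1.45 ± 0.34), the aldolase ALDOC (1.13 ± 0.21) and the collagen prolyl hydroxylase P4HA1 (1.00 ± 0.16). FOXO1, a transcription factor of quiescence and fasting, had 10.93, 10.90 and 10.96 in Caki-1 with dasatinib and 8.06, 7.70 and 7.66 with DMSO, against 9.63, 9.67 and 9.69 in 769-P with dasatinib and 8.87, 8.80 and 8.59 with DMSO. It rose in both and more in Caki-1 (difference 2.20 ± 0.13). Its list rose in 20 of 23 cases in each line, with 5 higher and 7 lower between them (52.2%), or 11 higher and 2 lower under spike-in scaling. ARRDC4, an arrestin relative that restrains glucose uptake, rose by 0.88 in Caki-1 and by 3.58 in 769-P.

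Of 12 proximal tubule genes 5 rose in Caki-1 and 9 in 769-P, and 0 were higher and 6 lower between the lines (50%). The median of -0.46 became 0.05, with 4 higher and 3 lower, under spike-in scaling. MME, the brush border peptidase neprilysin, had 7.52, 8.07 and 8.21 in 769-P with dasatinib and 5.18, 5.31 and 5.54 with DMSO, while Caki-1 lay between 4.48 and 4.84 on all 6 arrays, below the filter level (difference -2.69 ± 0.29). PCK1, the gluconeogenic carboxykinase, had line differences of -3.47, -2.49 and -1.15 at 6, 12 and 24 h. The renal transcription factors GATA3 and TFAP2A rose in Caki-1, by 1.44 and 1.14, and were higher by 1.57 and 1.56. WT1 was lower by 0.96 after a rise in 769-P of 0.97, with Caki-1 below the filter level on all 6 arrays, and lost its call under spike-in scaling (-0.46). Of 22 epithelial genes 5 were higher and 3 lower (36.4%, near the share of all genes), and 17 were higher and 2 lower under spike-in scaling. Beside CDH1, keratin KRT7 fell by 0.26 in Caki-1 and by 1.78 in 769-P, and KRT8 fell by 1.00 in Caki-1 and rose by 0.29 in 769-P.

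Mesenchymal genes were higher in 7 of 17 cases and lower in 0 (41.2%), or higher in 13 and lower in 0 under spike-in scaling. CD44, the hyaluronan receptor, had 13.54, 13.44 and 13.52 in Caki-1 with dasatinib and 13.57, 13.42 and 13.47 with DMSO, against 11.46, 11.18 and 11.30 in 769-P with dasatinib and 13.23, 13.24 and 13.28 with DMSO. It changed by 0.01 in Caki-1 and fell by 1.94 in 769-P (difference 1.95 ± 0.09, adjusted p = 2.61e-13, limma). The matrix proteoglycans LUM and DCN rose by 2.27 and 1.93 in Caki-1 and were below the filter level in 769-P. Both are fibroblast markers too: of the 4 fibroblast markers tested 3 were higher, and the mean level of all 10 ran from 5.44 to 5.6 in Caki-1 with dasatinib and from 4.93 to 4.97 with DMSO, against 4.49 to 4.59 in 769-P with dasatinib and 4.49 to 4.64 with DMSO. Of all 10, 6 lay below the filter level in each of the 4 groups. The samples were bulk cultures of established cancer lines, not tissue. In them a change in the share of cells that express a gene and one in RNA per cell cannot be told apart. The part of other cells was not tested.

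Inflammatory, stress and survival genes gave single large differences. Of 23 NF-kB targets and cytokines 6 were higher and 4 lower (43.5%). The chemokine CXCL8 had 10.78, 9.17 and 9.49 in 769-P with dasatinib and 8.43, 7.51 and 6.96 with DMSO, and changed by -0.16 in Caki-1 from a high level (difference -2.35 ± 0.42). TNFAIP6, a hyaluronan-binding protein, and PTGS2, the inducible cyclooxygenase, rose in Caki-1 by 1.80 and 1.34, and PTGS2 lay below the filter level in 769-P. Of 19 chaperones 4 were higher and 4 lower (42.1%), or 14 higher and 3 lower under spike-in scaling. The small heat shock protein CRYAB rose by 0.99 in Caki-1 and by 3.68 in 769-P, and HSPB1 rose by 0.62 in Caki-1 and fell by 0.83 in 769-P. In the ATF4 and unfolded protein list 10 of 28 were higher and 4 lower (50%), with PSAT1 of serine synthesis at 1.57 ± 0.12 and the folate enzyme MTHFD2 at 1.44 ± 0.17. The death receptor FAS fell in 769-P by 1.76 and changed by -0.16 in Caki-1 (1.60 ± 0.13). Of 23 BCL2 family and apoptosis genes 2 were higher and 4 lower (26.1%), or 15 higher and 1 lower under spike-in scaling. BCL2 itself was lower by 1.36 after a rise in 769-P of 1.09, a call lost in the mean over its probe sets (-0.36).

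**Figure D5:**
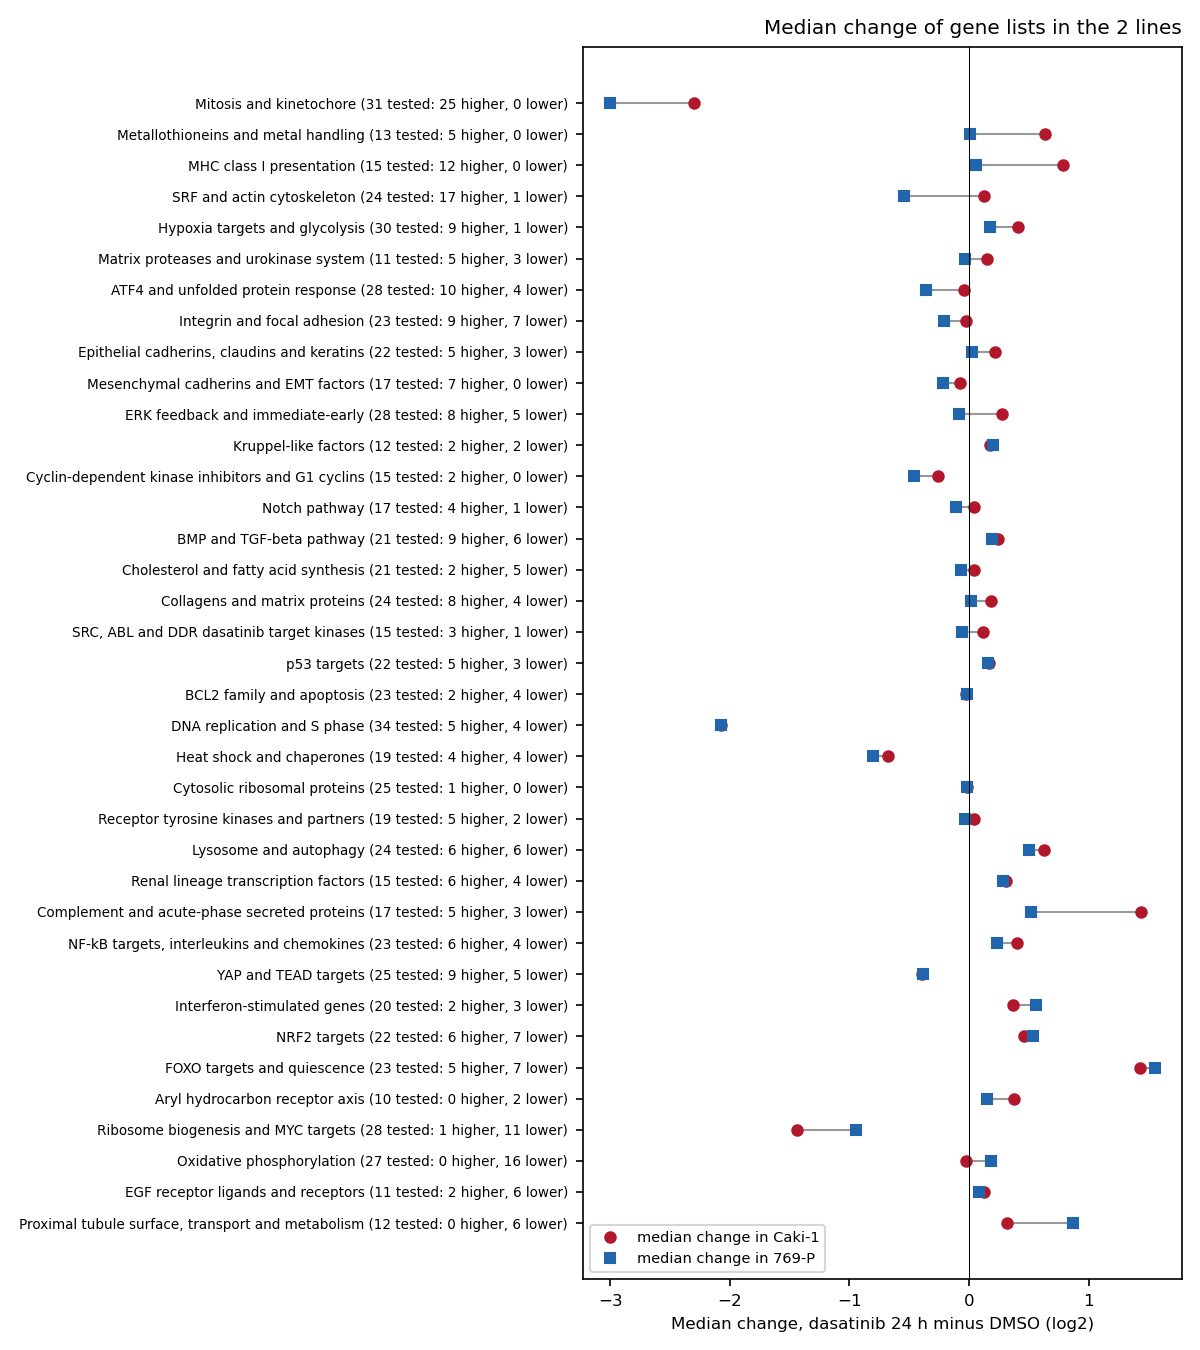
Median change after 24 h of dasatinib (log2) of the tested members of 37 gene lists in Caki-1 (red circles) and 769-P (blue squares), ordered by the median line difference, with the counts of members whose line difference was called higher or lower. Mitosis genes stood at -2.30 in Caki-1 and -3.0 in 769-P, and DNA replication genes at -2.07 in both.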

How the data were processed

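RNA was extracted with TRIZOL and RNeasy columns, treated with DNase and labelled with the GeneChip 3′IVT Express kit, per the labels' protocols. The deposited values are log2 signals, 1 per probe set and array. The submitters' processing notes name MAS5 with no version, and its role and the scaling are not given in the sources used here. The platform annotation of 2021 named 1 gene for 44994 of 49395 probe sets, several for 1832 and none for 2569, and each of 18132 genes was read from its brightest single-gene probe set by mean over the 24 arrays.

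All 24 arrays entered 1 limma fit (limma 3.58.1 in R 4.3.3) of 8 group means with an intensity trend, without a replicate block, 16 residual degrees of freedom and Benjamini-Hochberg adjustment over 12862 genes. These had a mean in at least 1 line above the 40th percentile of the line means. The procedure was tested on simulated data. The genes named were the 10 largest called differences each way, 8 genes per orientation of opposite calls, up to 4 called members per list, and a fixed set of signalling and cell cycle genes. Other genes named (among them NUSAP1, CDT1, MAD2L1 and the fibroblast markers), the genes and lists drawn in the plots of time and members, the contrast of 24 h with 6 h and the spike-in scaling were chosen after values were seen. The members and gene lists were chosen with earlier results of these data known. Alternatives were another scaling, filter, variance model or probe set rule, a replicate block, a minimum change and each array left out. The number of arrays limits the precision.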

Additional observations from a re-analysis of the deposited data

Results flagged for a closer look

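The line difference itself, a test of whether the 24 h effects of dasatinib differ between Caki-1 and 769-P, was called for 4628 genes at 24 h, 2435 at 12 h and 1041 at 6 h. The effects of the drug were called in opposite directions for 463 genes at 24 h. For 3733 genes the line difference at 24 h was itself called apart from that at 6 h.

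Signal also appeared in probe sets outside the comparison. Of 2479 tested probe sets annotated to several genes or to none, 628 had a called line difference at 24 h, 128 of them at least 2-fold, over a range of -3.38 to 3.64. Of 60 tested array control probe sets 21 had one, 2 of them at least 2-fold, with the poly-A spike-ins lower by 0.51 and the hybridization controls by 0.12 on average.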

How the results depend on the processing

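Of 171 named genes with a called line difference, 136 kept direction and call in each setting in which they were tested (22 or 23 settings a gene) and 35 lost the call in at least 1. The counts of called genes stayed within 1.5 times of those reported except as follows. Averaging all probe sets of a gene left 551 genes at least 2-fold apart. Array weights gave 4428 calls at 12 h and 2237 at 6 h. Testing against a minimum change of 0.25 left 1983 line differences, 72 opposite genes, 4518 genes in Caki-1, 4405 in 769-P, 914 at 12 h, 381 at 6 h, 4574 between lines under DMSO, 1145 for 24 h against 6 h and 200 called list members of 347. Spike-in scaling, chosen after seeing the data, gave 8101 line differences (93.4% higher, with 38.5% as deposited), 1467 at least 2-fold, 705 opposite (668 up in Caki-1, 37 up in 769-P), 10970 in 769-P, 6939 at 12 h, 2613 at 6 h and 535 list members. It turned 13 of 41 list medians, all 13 negative ones, and the signs of NQO1 (0.15), MAML2 (0.13), SRC (0.37), ABL2 (0.30), EPHA2 (0.36), CCN2 (0.25) and CDKN1A (0.30), of which NQO1 and MAML2 were called as deposited. CCN2 was 0.13 with array weights and -1.25, called, in the mean of its probe sets. The cause was not tested.

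Leaving out 1 array at a time gave 4047 to 4646 line differences, 817 to 918 at least 2-fold, 382 to 472 opposite, 6941 to 7914 genes in Caki-1, 6654 to 7182 in 769-P, 2010 to 2579 at 12 h, 825 to 1112 at 6 h, 3037 to 3845 for 24 h against 6 h and 318 to 354 list members. Between lines it gave 7828 to 8345 genes with dasatinib at 24 h and 6972 to 7624 under DMSO. The uncalled differences of MYC and CCN2 ranged from -0.033 to 0.185 and from -0.49 to 0.0292. The deviations of same-numbered dasatinib and DMSO arrays correlated at 0.05 to 0.14 in Caki-1 and 0.11 to 0.16 in 769-P, each array best with its own number, which is a hint from the data and not the design. With the replicate number as a replicate block 5172 line differences were called, 857 of them at least 2-fold, and 557 genes were opposite.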

Other observations

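Several gene groups outside the account above held single large differences. In the lysosome and autophagy list 18 of 24 rose in each line, with 6 higher and 6 lower between the lines (50%, where 36% of all genes were called). The lysosomal protease CTSF rose by 2.5 in Caki-1, with 769-P below the filter level (difference 2.83 ± 0.32), and NPC1, the cholesterol exporter of lysosomes, rose by 1.97 in Caki-1 and by 0.41 in 769-P. Of 13 metallothionein and metal handling genes 5 were higher and 0 lower (38.5%), or 13 higher and 0 lower under spike-in scaling. MT1F rose by 4.5 in Caki-1 and by 3.30 in 769-P, a difference that lost its call without 769-P DMSO replicate 1 (0.92), and MT2A fell by 1.19 in 769-P and changed by -0.12 in Caki-1, though probe sets of metallothioneins can read one another. Of 22 NRF2 targets 6 were higher and 7 lower (59.1%), with a median of -0.11 that became 0.40, with 12 higher and 1 lower, under spike-in scaling: UGDH, which makes the sugar acid of glucuronidation, rose by 0.68 in Caki-1 and fell by 0.42 in 769-P, and GCLC, the rate-limiting enzyme of glutathione synthesis, rose by 1.37 in 769-P (difference -1.09 ± 0.19). AHRR, the repressor of the aryl hydrocarbon receptor, rose by 1.31 in Caki-1 and by 2.89 in 769-P.

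Of 12 Kruppel-like factors 2 were higher and 2 lower (33.3%), or 8 higher and 0 lower under spike-in scaling. KLF4, a transcription factor of epithelial differentiation, fell by 2.14 in 769-P and changed by -0.05 in Caki-1, with line differences of 1.84, 1.72 and 2.09 at 6, 12 and 24 h. The complement protease C1R rose by 1.87 in Caki-1 and changed by -0.12 in 769-P. Of 17 Notch pathway genes 4 were higher and 1 lower (29.4%), or 12 higher and 0 lower under spike-in scaling: the receptor NOTCH2 fell by 0.91 in 769-P, a difference of 0.82 ± 0.15.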
